A study of Mus musculus with 36 samples.

Results

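The 9 genes described here encode the proteins most closely tied to the assembly of stress granules: G3bp1, G3bp2, Caprin1, Usp10, Ubap2l, Tia1, Tial1, Atxn2 and Fmr1. They were chosen by name, as the entries of the gene count table whose GENCODE symbol is on that list, and all 9 were found among 55492 entries. RNA was sequenced from dissociated cortical cells of embryonic day 18 mice (C57EDCX, a commercial preparation) in 36 libraries. There were 12 untreated control libraries, 12 libraries of cells given the synthetic glucocorticoid dexamethasone (DEX, 1 µM) and 12 of cells given DEX together with the glucocorticoid receptor antagonist RU-486 (1 µM each), with 6 of each group in batch 1 and 6 in batch 2. Treatment began on day 11 in vitro and lasted 72 h, with the agents replenished at 48 h. The comparisons ask whether a chronic glucocorticoid, used as a model of stress, changed the mRNA of these genes and whether RU-486 altered that change. The labels do not say whether the libraries came from separate cultures, so a p-value here measures the spread between these libraries, which may be technical.

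Stress granules are membraneless assemblies of untranslated mRNA and RNA-binding proteins that form in the cytoplasm when translation initiation stalls, usually after phosphorylation of the initiation factor eIF2. G3BP1 and G3BP2 are the RNA-binding scaffolds whose condensation with RNA builds the granule, CAPRIN1 and UBAP2L bind G3BP and favour assembly, and USP10 competes for the same G3BP surface and holds assembly back. TIA1 and TIAL1 carry prion-like domains, and ATXN2 and FMRP (from Fmr1) are RNA-binding translational regulators that neurons also transport in RNA granules. Granule assembly is controlled mostly at the level of protein and RNA, so the mRNA levels below are no measure of granule number.

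Library size ran from 12.1 to 82.4 M (mega) counts. In batch 1, control libraries held 24.2 to 82.4 M counts and DEX libraries 12.1 to 22.3 M counts, so depth and treatment did not overlap there and cannot be told apart. The RNA integrity number (RIN, a score of how intact the RNA is) was 7.8 to 9.2 in the batch 1 controls, 3.9 to 7.8 with DEX and 5.6 to 7.9 with DEX + RU-486. In batch 2, 6 libraries (2 per group) had a RIN under 3 and stood apart from the other 12. The treatment comparisons, the order of levels and the spreads that include them are therefore also given for libraries with a RIN of 6 or above, 28 over both batches. Neuronal markers were present throughout, with summed levels of 1830 to 9067 CPM (counts scaled to library size) over 8 genes. The sum was 11.8 to 46.0 CPM over 5 astrocyte markers and 56.8 to 2185 CPM over 5 oligodendrocyte markers.

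The stretches at the starts of G3bp1, G3bp2 and Fmr1 are shown because they carry, or lack, the motifs searched for in all 9 genes. The search covered the 250 bases before each gene's RefSeq start (GRCm38.p6), on both strands, and all 9 genes had an entry. The full glucocorticoid response element, AGAACA and TGTTCT with 3 unspecified bases between them, was found in 0 of the 9 windows and in 0.00913% of 32851 promoters of the same length. A single arm of it, TGTTCT, occurred in the window of G3bp2 alone among the 9 (16.1% of promoters), and every full element also holds this arm. The E-box CACGTG lay in the windows of Ubap2l, Atxn2 and Fmr1 (6.02% of promoters), and the NRF1 motif, GCGCA followed by its reverse complement, in that of Fmr1 (0.782%). Neither the cyclic AMP response element TGACGTCA (1.55% of promoters) nor the heat shock element, GAA, TTC and GAA with 2 unspecified bases between each (0.466%), was found in any of the 9 windows. A match is a description of letters in this window and not evidence of binding. The GENCODE start, from which the gene coordinates given with the values run, lies upstream of the RefSeq start by 44 bases for Tial1, 67 for G3bp1, 113 for Ubap2l, 121 for G3bp2, 272 for Atxn2 and 571 for Caprin1, and at the same base for Usp10, Tia1 and Fmr1. The windows of Atxn2 and Caprin1, the single arm of G3bp2 and 1 of the 2 E-boxes of Ubap2l therefore lie inside the GENCODE genes. The longer stretches of G3bp1 and G3bp2 are printed only as far as the GENCODE start. All stretches read 5′ to 3′ on the strand of the gene, with motif matches in capitals. The G3bp1 stretch is chr11:55469502-55469684 (+), the G3bp2 stretch chr5:92083720-92083848 (-), the single arm in the G3bp2 window with its flanks chr5:92083692-92083721 (-), and the Fmr1 stretch, with the NRF1 motif and then the E-box, chrX:68678291-68678540 (+).
G3bp1: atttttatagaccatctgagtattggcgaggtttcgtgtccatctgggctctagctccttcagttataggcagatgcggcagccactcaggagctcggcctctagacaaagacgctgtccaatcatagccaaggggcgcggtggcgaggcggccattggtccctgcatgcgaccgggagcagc
G3bp2: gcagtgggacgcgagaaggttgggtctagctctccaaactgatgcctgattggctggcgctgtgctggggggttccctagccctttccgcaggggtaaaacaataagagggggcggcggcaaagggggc
G3bp2 single arm: gcgggacgtccgTGTTCTtggagctcgttg
Fmr1: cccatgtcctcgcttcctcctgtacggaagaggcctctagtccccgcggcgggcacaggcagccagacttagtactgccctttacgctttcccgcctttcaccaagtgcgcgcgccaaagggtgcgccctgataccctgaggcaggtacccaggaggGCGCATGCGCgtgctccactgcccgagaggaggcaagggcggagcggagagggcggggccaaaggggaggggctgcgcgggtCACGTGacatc

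All 9 genes were well expressed, and each passed the filter of a mean above 5 counts. In the 12 control libraries, Caprin1 had the highest level per kilobase of exon, 30.5 ± 5.19 CPM per kb (SD, n = 12), followed by G3bp2 at 22.6 ± 5.73 CPM per kb. G3bp1 (9.15 ± 0.884), Fmr1 (8.94 ± 0.654) and Ubap2l (8.57 ± 0.655 CPM per kb) came next. Atxn2 (6.53 ± 1.16), Tial1 (6.34 ± 1.26), Tia1 (4.88 ± 1.69) and Usp10 (3.62 ± 0.592 CPM per kb) were lowest on this measure. The length used was the union of all annotated exons, from 6903 bases for Tial1 to 18659 for Ubap2l, and the order depends on it. In CPM not divided by length, the control means were 159.9 for Ubap2l, 102.5 for Atxn2, 76.9 for Tia1 and 64.6 for G3bp1. Neighbours in the order per kilobase had overlapping ranges over the control libraries except G3bp2 and G3bp1. The level of Caprin1 was nonetheless above that of G3bp2 in 12 of 12 control libraries, and that of Ubap2l above that of Atxn2 in 12 of 12. In the 10 controls with a RIN of 6 or above the order was the same, from 31.8 ± 3.85 CPM per kb for Caprin1 to 5.44 ± 1.16 for Tia1 and 3.81 ± 0.364 for Usp10, with Atxn2 (6.82 ± 0.756) and Tial1 (6.81 ± 0.631) level. The 2 paralogs of the scaffold were also unequal in counts not divided by length. There were 2.94 to 3.998 G3bp2 counts for each G3bp1 count in the batch 1 controls (median 3.48) and 1.93 to 2.80 in the batch 2 controls (median 2.59). All 9 levels by library are drawn in the plot of CPM by treatment and batch.

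**Figure D1:**
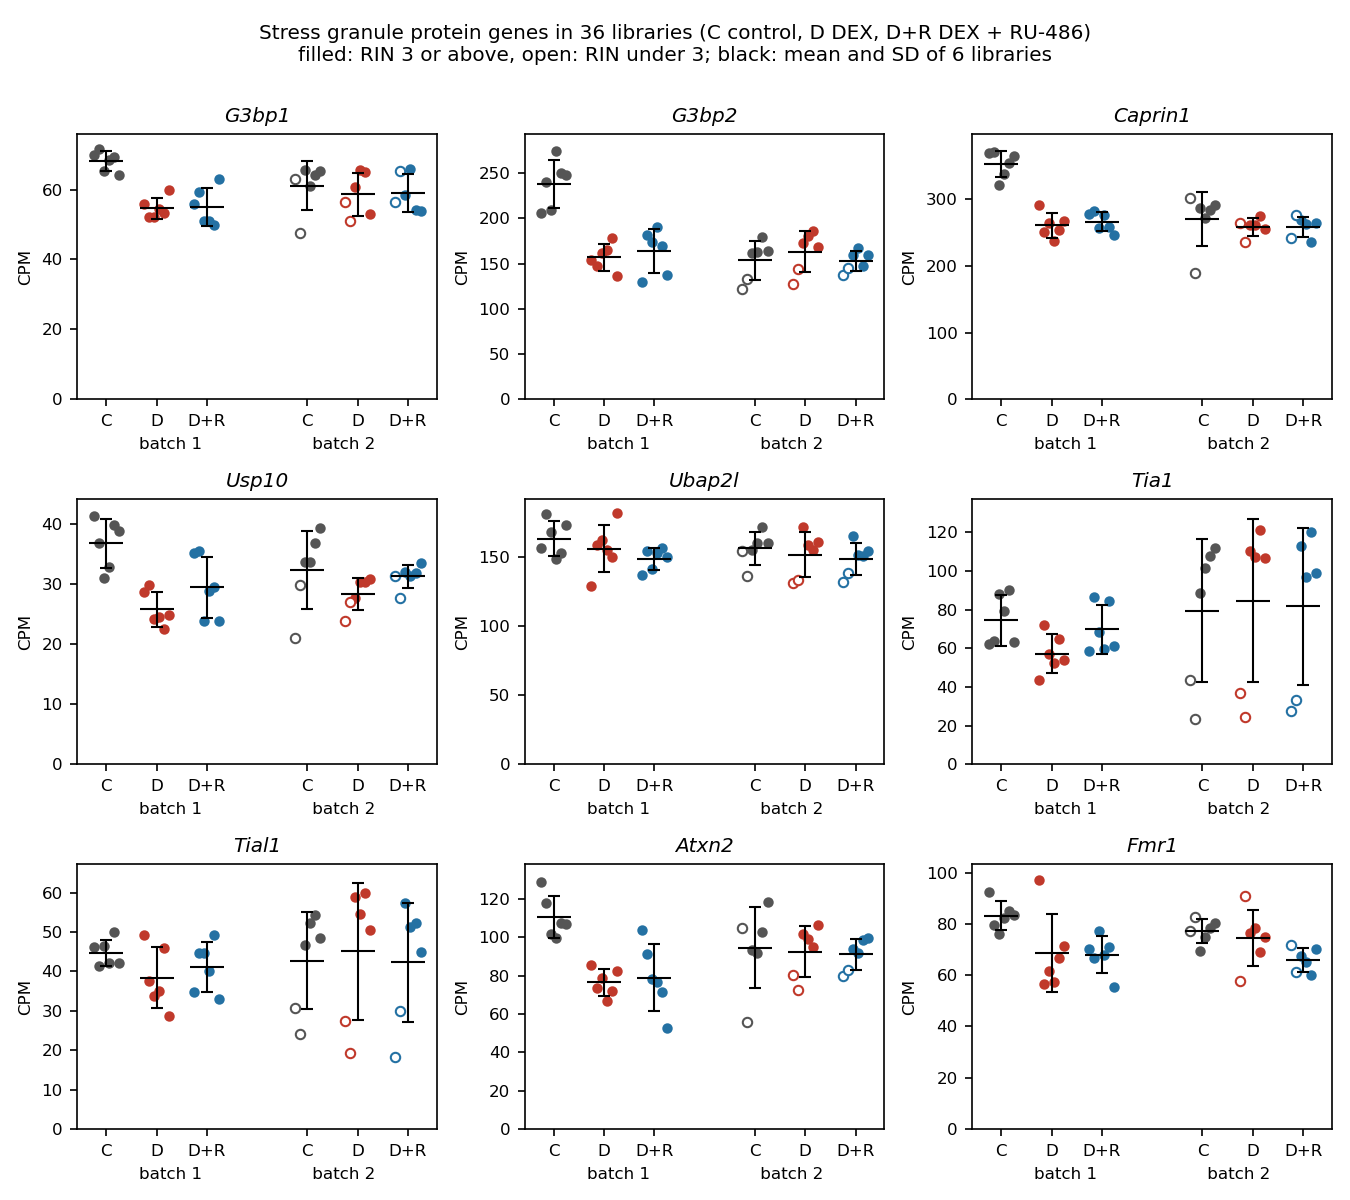
CPM of each gene (vertical axis, from 0) in every library, by treatment (C control, D DEX, D+R DEX + RU-486) and batch, with the mean and SD of 6 libraries in black and libraries of RIN under 3 as open circles. In batch 1 the DEX libraries of G3bp1, G3bp2, Caprin1, Usp10 and Atxn2 lie below all control libraries, and in batch 2 the open circles of Tia1 and Tial1 lie far below the filled ones.

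In batch 1, the mRNAs of 5 of the 9 genes fell with DEX: G3bp2, Atxn2, Usp10, Caprin1 and G3bp1, by 0.57 to 0.29 on the log2 scale. Of all 20355 genes tested, 9.99% were called lower in this comparison and 19% in either direction (edgeR, adjusted p under 0.05). For the same 5 genes the CPM ranges of DEX and control did not overlap, which held in the lower direction for 6.66% of all genes. All 9 fitted changes were negative, with a median of -0.35 against 0.06 over all genes tested. RIN moved with treatment, at 7.8 to 9.2 in control and 3.9 to 7.8 with DEX. With RIN as a covariate, 2 of the 5 calls remained, Caprin1 (edgeR adjusted p = 0.0246) and G3bp1 (0.0336), where 1.77% of all genes were called lower, and G3bp2 (-0.33, 0.133), Usp10 (-0.46, 0.112) and Atxn2 (-0.54, 0.0794) were no longer called. Markers of oligodendrocytes (5 of 5 higher), dividing cells (3 of 3 higher), astrocytes (2 of 5 higher) and neurons (5 of 8 lower) moved in the same comparison, and their part in the result was not tested. At a RIN of 6 or above, 1 of 3 dividing-cell markers was called higher and 4 of 8 neuronal markers lower. In bulk RNA, fewer cells of a type and less RNA per cell cannot be told apart.

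Both scaffold genes were lower. G3bp1 (ENSMUSG00000018583, chr11:55469685-55504838, + strand, GRCm38) measured 64.1 to 71.7 CPM in the batch 1 controls (median 68.9) and 52.2 to 59.9 CPM with DEX (median 53.8). The lowest control library thus lay above the highest DEX library. The change was -0.29 ± 0.08 (log2, SE, n = 6 per group, edgeR adjusted p = 0.0196), a level 0.821 times that of control. G3bp2 (ENSMUSG00000029405, chr5:92052146-92083719, - strand) ranged from 206 to 274 CPM in control (median 244) and from 136 to 178 CPM with DEX (median 158). Its change was -0.57 ± 0.11 (edgeR adjusted p = 0.00168), or 0.675 times control, the largest of the 9 in this fit, but -0.33 and smaller than those of Atxn2, Usp10, Caprin1, G3bp1 and Fmr1 with RIN as a covariate. The ratio of G3bp2 to G3bp1 counts was 2.28 to 3.35 with DEX (median 2.92), overlapping the control range of 2.94 to 3.998, and it was not tested.

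Among the proteins that bind G3BP, Caprin1 and Usp10 were lower and Ubap2l was not called. Caprin1 (ENSMUSG00000027184, chr2:103762941-103797649, - strand), the partner that favours assembly, measured 321 to 370 CPM in control (median 359) and 237 to 291 CPM with DEX (median 258), without overlap. Its change was -0.40 ± 0.08 (edgeR adjusted p = 0.00246). Usp10 (ENSMUSG00000031826, chr8:119910360-119957560, + strand), the deubiquitinase that competes with CAPRIN1 for G3BP, ranged from 30.97 to 41.4 CPM in control (median 37.8) and from 22.5 to 29.8 CPM with DEX (median 24.7). It too showed no overlap, with a change of -0.48 ± 0.12 (edgeR adjusted p = 0.00713). Partners with opposite roles in assembly therefore both had less mRNA. Ubap2l (ENSMUSG00000042520, chr3:90000140-90052628, - strand) overlapped fully, at 149 to 181 CPM in control (median 162) and 129 to 182 CPM with DEX (median 157). Its fitted change was -0.03 ± 0.09 (edgeR adjusted p = 0.842).

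Of the other RNA-binding proteins, Atxn2 alone was called. Atxn2 (ENSMUSG00000042605, chr5:121711337-121816493, + strand), the polyglutamine protein of a spinocerebellar ataxia, measured 99.7 to 129 CPM in control (median 107) and 66.5 to 85.5 CPM with DEX (median 76.3), without overlap. It changed by -0.50 ± 0.12 (edgeR adjusted p = 0.00795). Tia1 (ENSMUSG00000071337, chr6:86404219-86433405, + strand) ranged from 62.0 to 90.2 CPM in control and from 43.7 to 72.01 CPM with DEX, a change of -0.35 ± 0.13 that was not called (edgeR adjusted p = 0.0728). Leaving out DEX replicate 8 or 11 or control replicate 1 brought Tia1 to an adjusted p of 0.0380, 0.0482 and 0.0417. Tial1 (ENSMUSG00000030846, chr7:128439777-128461717, - strand) ranged from 41.5 to 50.02 CPM in control and from 28.6 to 49.3 CPM with DEX, with a change of -0.19 ± 0.13 (edgeR adjusted p = 0.317). Fmr1 (ENSMUSG00000000838, chrX:68678541-68717963, + strand), whose silencing causes fragile X syndrome in people, ranged from 75.9 to 92.6 CPM in control and from 56.6 to 97.1 CPM with DEX. A single library, DEX replicate 7 at 97.1 CPM, made up the overlap. The change of Fmr1 was -0.24 ± 0.12 (edgeR adjusted p = 0.158), and without DEX replicate 7 it was -0.38 (edgeR adjusted p = 0.00928).

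With DEX + RU-486 in batch 1, 4 of the 9 genes were lower than in the same control libraries: G3bp1, G3bp2, Caprin1 and Atxn2 (edgeR; 8.46% of all genes tested were called lower and 15.4% in either direction). With RIN as a covariate, Caprin1 (adjusted p = 0.0228) and G3bp1 (0.0290) were still called, with 1.79% of all genes lower, and G3bp2 (-0.34, 0.0808) and Atxn2 (-0.49, 0.0615) were not. Without that covariate, the changes were -0.29 ± 0.08 for G3bp1 (adjusted p = 0.0227), -0.52 ± 0.11 for G3bp2 (0.00444), -0.39 ± 0.08 for Caprin1 (0.00501) and -0.46 ± 0.12 for Atxn2 (0.0149). The CPM ranges did not overlap for G3bp1 (49.7 to 63.1 CPM, median 53.5), G3bp2 (129 to 190 CPM, median 172) and Caprin1 (246 to 282 CPM, median 267), which held in the lower direction for 5.16% of all genes. Atxn2 ranged more widely, from 52.5 to 104 CPM (median 77.4), and its highest library overlapped the controls. Usp10 stood at 23.8 to 35.5 CPM (median 29.2), and its change of -0.30 ± 0.12 was not called (adjusted p = 0.0808). The call of G3bp1 was lost without control replicate 2 (adjusted p = 0.0510) or without DEX + RU-486 replicate 15 or 17 (0.0527 and 0.0540). Usp10 was called without control replicate 3 (0.0445) or without DEX + RU-486 replicate 13 or 14 (0.0444 and 0.0379), and Fmr1 without DEX replicate 7 (0.0447), although that library is in neither arm and enters only through the shared estimate of spread.

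No gene of the 9 was called between DEX + RU-486 and DEX in batch 1. The fitted differences ran from -0.08 for Ubap2l to 0.27 for Tia1, with 0 of 9 called by edgeR or DESeq2 at an adjusted p under 0.05 and 0% of all genes called by edgeR. DESeq2 called 0.00983% of all genes. At an unadjusted p under 0.05, 0 of the 9 passed with either tool (4.09% of all genes with edgeR). The difference of DEX + RU-486 from DEX was -0.00 ± 0.08 for G3bp1, 0.05 ± 0.11 for G3bp2 and 0.18 ± 0.12 for Usp10 (log2, SE). The DEX and DEX + RU-486 comparisons share their controls, so their likeness is not independent evidence.

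**Figure D2:**
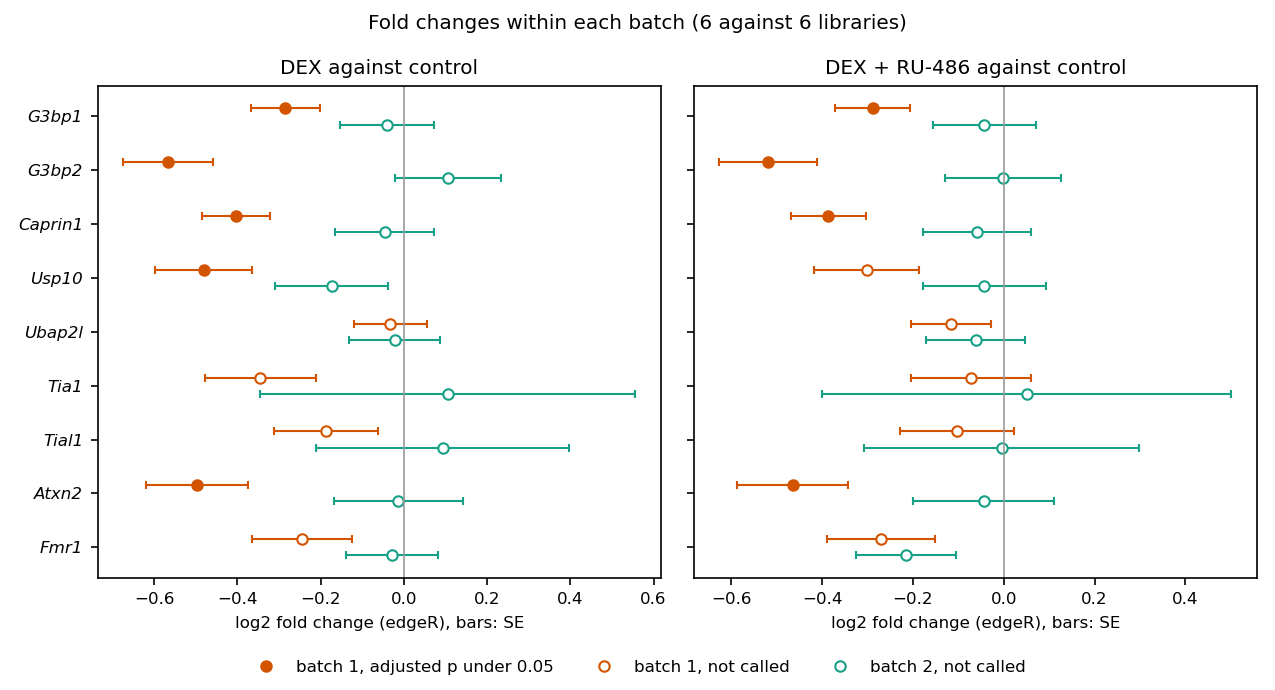
Log2 fold change of each gene against control (horizontal axis; points with SE bars, edgeR, 6 against 6 libraries) within batch 1 and batch 2, for DEX (left) and DEX + RU-486 (right). Filled points have an adjusted p under 0.05; they are 5 genes with DEX and 4 with DEX + RU-486, all in batch 1 and all below 0, while the batch 2 points lie between -0.22 and 0.11.

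In batch 2 the 9 genes showed no called difference between any of the groups. With edgeR 0 of 9 were called with DEX and 0 of 9 with DEX + RU-486, against 0% of all genes, and 0 of 9 passed an unadjusted p under 0.05 in either comparison (2.19% and 0.894% of all genes). DESeq2 likewise called 0 of 9 and 0% of all genes in each, with 0 and 1 of the 9 at an unadjusted p under 0.05. Between DEX + RU-486 and DEX, 0 of 9 were called by either tool and 0 of 9 had an unadjusted p under 0.05. The share of all genes in that comparison is not given here. G3bp2 measured 122 to 180 CPM in the batch 2 controls (median 162), 128 to 186 CPM with DEX (median 171) and 138 to 167 CPM with DEX + RU-486 (median 153). These controls lay entirely below the batch 1 controls and at the level of the batch 1 DEX libraries. Its fitted change with DEX was 0.11 ± 0.13. Caprin1 was at 189 to 301 CPM in control (median 285), 235 to 274 CPM with DEX (median 261) and 236 to 276 CPM with DEX + RU-486 (median 263), again with controls below those of batch 1. G3bp1 stood at 47.4 to 65.7, 51.1 to 65.6 and 53.9 to 65.9 CPM in the 3 groups, Usp10 at 20.9 to 39.3, 23.9 to 30.8 and 27.7 to 33.5 CPM, and Atxn2 at 56.0 to 118, 72.4 to 106 and 79.9 to 99.7 CPM. Ubap2l was at 136 to 172, 131 to 172 and 132 to 165 CPM, and Fmr1 at 69.3 to 82.6, 57.9 to 90.9 and 60.2 to 71.8 CPM, with a fitted change of -0.22 ± 0.11 for Fmr1 with DEX + RU-486. Tia1 spanned 23.5 to 112, 24.6 to 121 and 27.7 to 120 CPM, and Tial1 24.1 to 54.4, 19.3 to 59.97 and 18.4 to 57.3 CPM. For none of the 9 were DEX or DEX + RU-486 libraries apart from the controls, as 0.147% and 0.108% of all genes were. Within the 12 batch 2 libraries of RIN 6 or above, Usp10 had the smallest adjusted p of the 9 with DEX, at 33.6 to 39.3 CPM in 4 controls and 27.7 to 30.8 CPM in 4 DEX libraries, a change of -0.25 ± 0.08 that was not called (edgeR adjusted p = 0.120). In these 12 libraries 0 of 9 were called in any of the 3 comparisons, against 0.565% of all genes with DEX, 0.00491% with DEX + RU-486 and 1.56% between DEX + RU-486 and DEX. An unadjusted p under 0.05 was reached by Usp10 with DEX (17.2% of all genes), by Fmr1 with DEX + RU-486 (-0.19 ± 0.07, 7.55% of all genes), and by G3bp2 (-0.16 ± 0.07) and Fmr1 (-0.18 ± 0.07) between DEX + RU-486 and DEX (19.3% of all genes).

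The difference of the DEX response between batches was tested as an interaction. It was positive for all 9 genes, meaning a change less negative in batch 2, but none was called with all libraries (edgeR; 0.172% of all genes were called in either direction, and 3 of the 9 passed an unadjusted p under 0.05, against 12.9% of all genes). DESeq2 was not run for this term. G3bp2 had the largest value, 0.69 ± 0.16 (adjusted p = 0.0644). With the 28 libraries of RIN 6 or above, 3 of the 9 were called, against 3.18% of all genes in that direction: G3bp2 at 0.66 ± 0.13 (adjusted p = 0.00475), Atxn2 at 0.55 (0.0210) and Caprin1 at 0.36 ± 0.10 (0.0324). For DEX + RU-486 the same term was called for none of the 9 with either set of libraries (0.0835% of all genes with all libraries and 1.91% at a RIN of 6 or above), with G3bp2 at 0.53 ± 0.16 (adjusted p = 0.149).

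Fitted over both batches with batch as a term, DEX changed none of the 9 genes past the threshold (edgeR; 0.0246% of all genes were called, and 6 of the 9 had an unadjusted p under 0.05, against 16.9% of all genes). All 9 values were negative, and the nearest to a call were Usp10 at -0.36 ± 0.09 (adjusted p = 0.0791), Caprin1 at -0.25 ± 0.07 (0.0902) and G3bp1 at -0.19 ± 0.07 (0.151). DESeq2 called Caprin1 (-0.20, adjusted p = 0.0328) and Usp10 (-0.31, 0.0260), with 1.06% of all genes called lower, and with RIN as a covariate edgeR called Usp10 (-0.30, 0.0463), with 1.32% of all genes lower. One library decided several of these values: without control replicate 20, whose RIN is 1.8, edgeR called Caprin1 (adjusted p = 0.00880), Usp10 (0.0190), Atxn2 (0.0254) and G3bp1 (0.0331), with 4.38% of all genes lower, and without control replicate 19 it called Usp10 (0.0259), with 0.82% of all genes lower. Restricted to a RIN of 6 or above, 5 genes were called lower with DEX, against 11.9% of all genes: Usp10 (-0.40 ± 0.08, adjusted p = 0.000830), Caprin1 (-0.30 ± 0.06, 0.00106), Atxn2 (-0.32 ± 0.09, 0.00780), G3bp1 (-0.23 ± 0.06, 0.00903) and G3bp2 (-0.29 ± 0.09, 0.0197). These are the same 5 genes that were called in batch 1 alone, which supplies 16 of the 28 libraries. For DEX + RU-486 against control, 0 of 9 were called over both batches by edgeR and by DESeq2 (0% and 0.481% of all genes), with 6 of the 9 at an unadjusted edgeR p under 0.05 (10.8% of all genes). At a RIN of 6 or above, 4 of the 9 were called lower, against 5.87% of all genes: G3bp1, G3bp2, Caprin1 and Atxn2, with an adjusted p of 0.00749, 0.0176, 0.00480 and 0.0432. Without control replicate 20, Caprin1 (0.0168) and Atxn2 (0.0489) were called in this comparison, with 1.37% of all genes lower. DEX + RU-486 against DEX had 0 of 9 called by edgeR and by DESeq2 over both batches (0% and 0.00983% of all genes) and 0 of 9 at an unadjusted p under 0.05 (2.68% of all genes with edgeR), with Usp10 farthest from 0 at 0.17 ± 0.09. At a RIN of 6 or above, 0 of 9 and 0% of all genes were called by edgeR, and 1 of the 9, Usp10 at 0.18 ± 0.08, had an unadjusted p under 0.05 (0.0320, with 8.93% of all genes under 0.05).

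Some of these genes differed far more between levels of RNA integrity than between treatments. In batch 2, 6 of the 9 were lower in the 6 libraries of RIN under 3 than in the 12 of RIN 6 or above, with treatment in the model (edgeR; 26.8% of all genes were called lower and 55.2% in either direction). Tia1 fell from 88.6 to 121 CPM (median 107) to 23.5 to 43.4 CPM (median 30.5), a change of -1.78 ± 0.12 (adjusted p = 1.63e-10). Its paralog Tial1 fell from 45.0 to 60.0 CPM (median 52.3) to 18.4 to 30.8 CPM (median 25.8), by -1.09 ± 0.11 (adjusted p = 6.79e-08). The ranges of both genes were far apart, and the ratio of Tia1 to Tial1 counts was also lower at low RIN, 0.974 to 1.51 against 1.87 to 2.30. The other 4 changed less: Atxn2 by -0.34 ± 0.10, G3bp2 by -0.33 ± 0.07, Usp10 by -0.30 ± 0.09 and Ubap2l by -0.23 ± 0.07, with an adjusted p of 0.00663, 0.000402, 0.00730 and 0.00469. G3bp1 (-0.13 ± 0.08, adjusted p = 0.217), Caprin1 (-0.11 ± 0.09, 0.302) and Fmr1 (0.01 ± 0.09, 0.914) were not called.

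**Figure D3:**
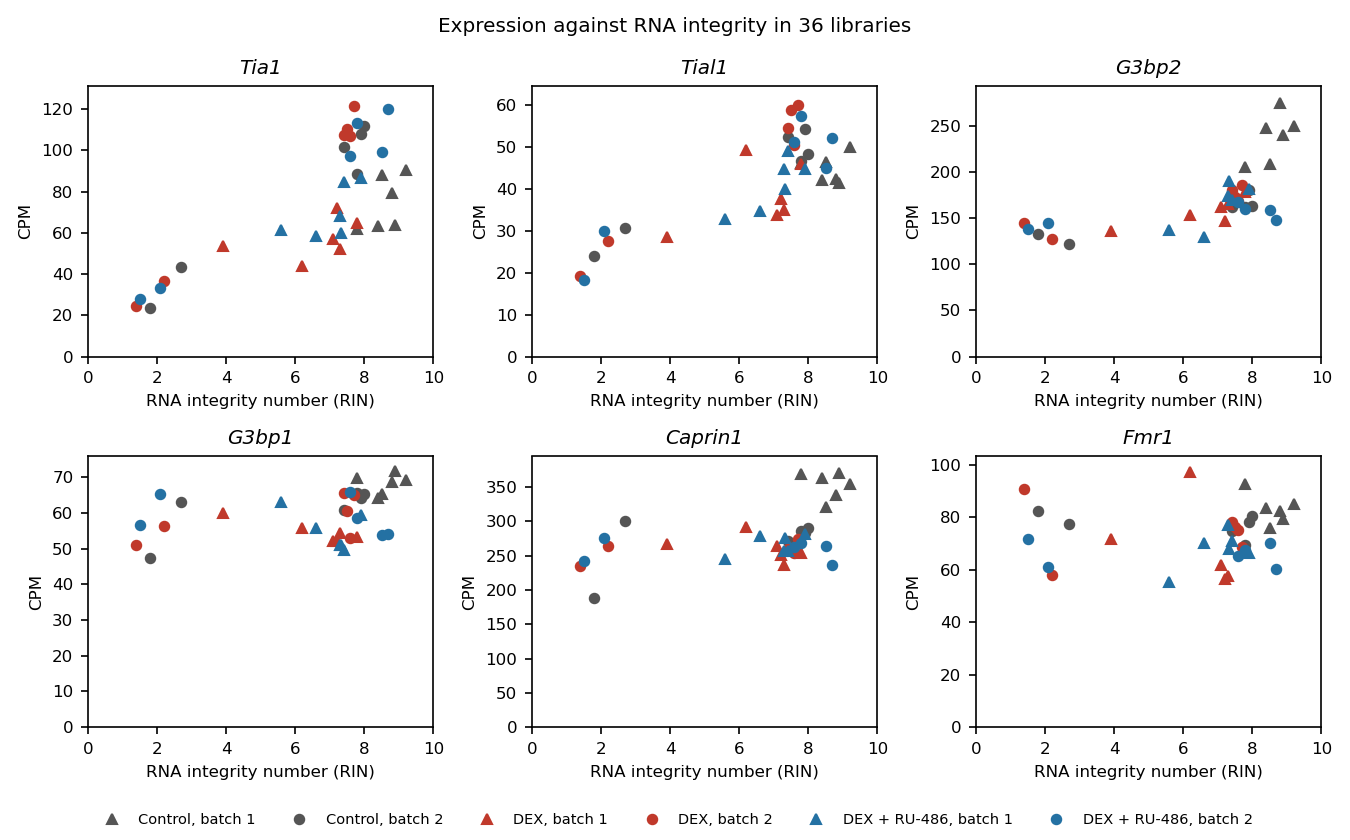
CPM of 6 of the genes (vertical axis, from 0) against the RIN of each of 36 libraries (horizontal axis), with treatment as colour and batch as symbol. The 6 libraries of RIN under 3 hold at most 43.4 CPM of Tia1 and 30.8 CPM of Tial1, while their Fmr1 values of 57.9 to 90.9 CPM lie among those of the other libraries.

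Without the libraries of RIN under 6, batch 1 gave the same 5 calls with DEX (9.72% of all genes lower), G3bp2 at -0.51 ± 0.10 (adjusted p = 0.00181), and the same 4 with DEX + RU-486 (7.1% of all genes lower). Between the batches, G3bp2 alone was called, lower in batch 2 by -0.22 ± 0.08 (adjusted p = 0.0321, against 14.3% of all genes called lower). At a RIN of 6 or above, G3bp2 was at -0.17 ± 0.07 (0.0512) and Caprin1 at -0.14 ± 0.05 (0.0244), while Tia1 (0.65 ± 0.08) and Tial1 (0.29 ± 0.07) were called higher in batch 2 (24.7% of all genes lower and 23.4% higher).

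Markers of other cells moved with the batch 1 comparison. Over all genes tested, 8.99% were higher and 9.99% lower with DEX, and 6.92% and 8.46% with DEX + RU-486. All 5 oligodendrocyte markers were higher with DEX, their summed level ranging from 56.8 to 266 CPM in control, 457 to 2083 CPM with DEX and 209 to 893 CPM with DEX + RU-486. The highest DEX sum was that of replicate 12, whose RIN is 3.9. The DEX libraries of RIN 6 or above ranged from 457 to 738 CPM. All 3 markers of dividing cells were higher with DEX (2.15 to 12.4 CPM in control, 7.90 to 59.0 CPM with DEX), and 2 of 5 astrocyte markers were (11.8 to 19.6 and 16.8 to 31.1 CPM). At a RIN of 6 or above, the dividing-cell sum with DEX was 7.90 to 20.7 CPM, and 1 of the 3 dividing-cell markers, Cdk1, was called higher. With DEX + RU-486, 3 of 5 oligodendrocyte, 2 of 3 dividing-cell and 1 of 5 astrocyte markers were called higher. The dividing-cell sum there was 6.45 to 60.6 CPM, and 6.45 to 29.5 CPM at a RIN of 6 or above. Of 8 neuronal markers, 5 were lower with DEX and 4 with DEX + RU-486, with summed levels of 2458 to 3219 CPM in control, 1830 to 2797 CPM with DEX and 2058 to 2820 CPM with DEX + RU-486. At a RIN of 6 or above, 4 of the 8 were called lower with DEX and 3 with DEX + RU-486 (9.72% and 7.1% of all genes). No marker of these 4 lists was at 0 in all libraries of a group. Microglia (0.0990 to 0.619 CPM in control, 0.0632 to 1.36 CPM with DEX), endothelial (0.426 to 2.18 and 0.930 to 5.81 CPM) and fibroblast markers (0.782 to 2.24 and 0.412 to 2.77 CPM) were near 0, with none called for DEX. With DEX + RU-486, 2 of 3 endothelial markers were called higher, Cldn5 (3.83 ± 1.08, adjusted p = 0.0214) and Flt1 (2.31 ± 0.77, 0.0457), with a summed level of 1.35 to 11.8 CPM, against 6.92% of all genes, and neither was called at a RIN of 6 or above. The microglial gene Tmem119 was at 0 in all batch 2 libraries of RIN 6 or above given DEX or DEX + RU-486, and the fibroblast gene Dcn in those given DEX. The part of these cell types in the lower levels of the 5 stress granule genes was not tested. With RIN as a covariate, no marker of these 7 lists was called in batch 1 except Map2, lower with DEX. Few genes of any kind were called there, 1.77% lower and 1% higher with DEX, and 1.79% and 0.806% with DEX + RU-486. The lost calls alone do not show that the marker changes were smaller. In the low-RIN libraries of batch 2, markers of all 7 lists were called higher: 4 of 5 for astrocytes, 2 of 3 for microglia, 4 of 5 for oligodendrocytes, 3 of 3 each for endothelium and dividing cells, 2 of 3 for fibroblasts and 4 of 8 for neurons, where the other 4 were lower. Over all genes tested, 28.4% were higher and 26.8% lower at low RIN. The neuronal sum was 4991 to 9067 CPM against 2019 to 2320 CPM in the other batch 2 libraries, and most of it was Map2 (4274 to 8111 against 991 to 1262 CPM), while Syt1 fell by 1.32 and Gad1 by 2.43 on the log2 scale.

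Other stress granule proteins showed more lower than higher calls in batch 1. Of 37 further genes whose proteins are found in the granules, 12 were lower and 2 higher with DEX (9.99% and 8.99% of all genes tested), with a median change of -0.15 against 0.06 over all genes tested. Eif4e, which binds the mRNA cap, ranged from 47.0 to 63.5 CPM in control and from 32.1 to 45.4 CPM with DEX (-0.60 ± 0.11, edgeR adjusted p = 0.00162). Serbp1, an mRNA- and ribosome-binding protein, ranged from 331 to 403 CPM and from 222 to 315 CPM (-0.50 ± 0.10, 0.00174), and the translational repressor Pum2 from 148 to 179 CPM and from 92.5 to 129 CPM (-0.51 ± 0.11, 0.00268). None of these 3 genes, named for the smallest p in the list, overlapped between DEX and control, which held in the lower direction for 6.66% of all genes. The 2 genes that rose were Igf2bp1 and Zfp36, and Zfp36 (tristetraprolin, which directs mRNA decay) was 2.37 ± 0.53 higher with DEX + RU-486 (0.00654). Both were near the floor in the batch 2 libraries of RIN 6 or above, Zfp36 at 0.38 to 1.92 CPM and Igf2bp1 at 0.79 to 3.69 CPM. In batch 1 at a RIN of 6 or above, Zfp36 and Atxn2l were called higher with DEX and Igf2bp1 was not. Igf2bp1 and Zfp36 were also called higher at low RIN in batch 2, and 7 of the 12 lower genes, Eif4e and Pum2 among them, were called lower there. Pabpc4, -0.38 ± 0.12 with DEX, was higher at low RIN (1.08 ± 0.10), where 28.4% of all genes were higher and 26.8% lower. With DEX + RU-486, 10 of the 37 were lower and 3 higher (8.46% and 6.92% of all genes). With RIN as a covariate, 4 were lower and 0 higher with DEX (1.77% and 1% of all genes), and 3 and 0 with DEX + RU-486 (1.79% and 0.806%), with Serbp1 and Eif4g1 among those called in each.

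Processing bodies are a related assembly that holds mRNA decapping and decay factors. Of 18 genes for their proteins, 6 were lower and 0 higher with DEX in batch 1 (9.99% and 8.99% of all genes), and 4 and 0 with DEX + RU-486 (8.46% and 6.92%). The decapping enzyme Dcp2 ranged from 39.1 to 54.7 CPM in control and from 23.4 to 39.9 CPM with DEX (-0.67 ± 0.15, edgeR adjusted p = 0.00496), and the helicase Ddx6 from 120 to 158 and from 101 to 124 CPM (-0.34 ± 0.08, 0.00713). Lsm14b, an mRNA-binding partner of DDX6, changed by -0.53 ± 0.10 (0.00166). At low RIN in batch 2, 11 of the 18 were lower and 3 higher, against 26.8% and 28.4% of all genes. Of the 6 called lower with DEX, Ddx6, Xrn1, Eif4enif1 and Cnot1 were lower there too, and Lsm14b was higher (0.36 ± 0.08). Ddx6 and Lsm14b were still called lower with DEX in batch 1 with RIN as a covariate (1.77% of all genes), and Lsm14b with DEX + RU-486 (1.79%).

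The eIF2 pathway, which triggers granule assembly, was called in both directions. Of 16 genes, 4 were higher and 3 lower with DEX in batch 1, against 8.99% and 9.99% of all genes. Eif2ak3, the kinase PERK of the endoplasmic reticulum, ranged from 23.8 to 33.4 CPM in control and from 50.3 to 76.9 CPM with DEX (1.16 ± 0.13, edgeR adjusted p = 0.000113). The phosphatase subunit Ppp1r15a (GADD34), which reverses eIF2 phosphorylation, ranged from 18.8 to 59.0 and from 70.3 to 121 CPM (1.54 ± 0.25, 0.000634). Ddit3 (CHOP), a transcription factor of the same response, ranged from 7.97 to 31.4 and from 31.04 to 54.7 CPM (1.56 ± 0.26, 0.000816). The symbol Ddit3 has 2 entries, and only the one with the older identifier was used. Of these 3 genes, named for the smallest p in the list, Eif2ak3 and Ppp1r15a did not overlap between the groups, and Ddit3 barely did. The share of all genes apart in the higher direction is not given here. With DEX + RU-486 the same 3 genes were higher, Eif2ak3 by 0.99 ± 0.13, Ppp1r15a by 1.48 ± 0.25 and Ddit3 by 1.73 ± 0.26, and 2 of the 16 were lower, Eif2ak1 (-0.51 ± 0.11) and Eif2s1 (-0.37 ± 0.12), against 6.92% of all genes higher and 8.46% lower. The response of Eif2ak3 to DEX differed between batches (-1.11 ± 0.19, edgeR adjusted p = 0.00920), the 1 call of that test among the 16 genes (0.172% of all genes). For DEX + RU-486, Eif2ak3 was again the 1 call of the 16 in the batch difference, also lower (0.0835% of all genes). At low RIN in batch 2, Ppp1r15a (0.97 ± 0.20), Ddit3 (0.84 ± 0.12) and Eif2b4 (1.01 ± 0.12) were also higher and Eif2s1 and Eif2b3 lower, each as with DEX (28.4% of all genes were higher and 26.8% lower), while Eif2ak3 was not called (0.09 ± 0.11). Eif2ak3 and Ppp1r15a were still called higher with DEX in batch 1 with RIN as a covariate, and none was called lower (1% and 1.77% of all genes). With DEX + RU-486, Eif2ak3, Ppp1r15a and Ddit3 were still called higher and Eif2ak1 lower (0.806% and 1.79% of all genes).

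Of 12 tested genes that clear granules, 4 were lower and 3 higher with DEX (9.99% and 8.99% of all genes), and as many with DEX + RU-486 (8.46% and 6.92%). Those lower included Vcp, the ATPase that extracts proteins from granules (299 to 378 CPM in control, 196 to 231 CPM with DEX, -0.55 ± 0.09, edgeR adjusted p = 0.000571), the constitutive chaperone Hspa8 (1233 to 1613 and 942 to 1118 CPM, -0.54 ± 0.10, 0.00113) and the kinase Ulk2 (152 to 193 and 99.3 to 132 CPM, -0.52 ± 0.12, 0.00488). The 3 that were higher were Bag3 and the inducible chaperones Hspa1a and Hspa1b. All 3 were also higher at low RIN in batch 2, Hspa1b by 2.98 ± 0.31, Hspa1a by 1.94 ± 0.24 and Bag3 by 1.90 ± 0.53, and Vcp was also lower there (-0.40 ± 0.10, adjusted p = 0.00208). Hspa8 (-0.17 ± 0.10) and Ulk2 (-0.09 ± 0.12) were not called at low RIN. Vcp and Hspa8 were still called lower in batch 1 with RIN as a covariate, and none of the 12 higher. Of all genes, 1.77% were then lower and 1% higher with DEX, and 1.79% and 0.806% with DEX + RU-486. The other lost calls alone do not show that those changes were smaller.

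**Figure D4:**
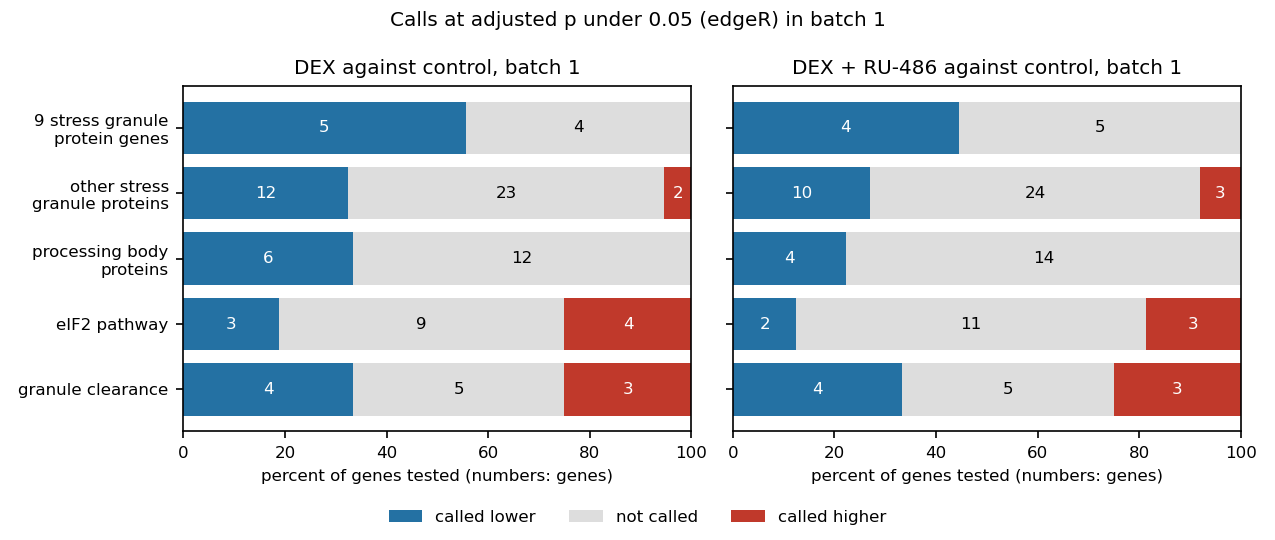
Percent of the genes tested in each list (horizontal axis) that were called lower, not called or called higher in batch 1 (edgeR, adjusted p under 0.05), with the number of genes in each bar, for DEX (left) and DEX + RU-486 (right) against control. The 9 genes split into 5 lower and 4 not called with DEX and into 4 and 5 with DEX + RU-486.

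Genes that the glucocorticoid receptor is known to induce were measured beside these lists. In batch 1, 2 of 5 rose with DEX (8.99% of all genes), Per1 (0.80 ± 0.20, edgeR adjusted p = 0.00825) and Tsc22d3 (0.67 ± 0.22, 0.0351), and 1 of 5, Per1 (0.75 ± 0.20, 0.0158), with DEX + RU-486 (6.92% of all genes). Tsc22d3 was nearly as far from control with DEX + RU-486 (0.61 ± 0.22, 0.0603), and its difference from DEX was -0.06 ± 0.22. None of the 5 was called higher with RIN as a covariate, where 1% of all genes were with DEX and 0.806% with DEX + RU-486. Fkbp5 was then called lower with DEX + RU-486 (1.79% of all genes). The lost calls alone do not show that the changes of Per1 and Tsc22d3 were smaller. At low RIN in batch 2, Klf9 (1.38 ± 0.12), Fkbp5 (0.76 ± 0.12) and Per1 (0.19 ± 0.08) were higher, Tsc22d3 was lower (-0.69 ± 0.12) and Sgk1 was not called (28.4% of all genes were higher and 26.8% lower). Fkbp5 (-0.05 ± 0.20), Klf9 (0.50 ± 0.33) and Sgk1 (0.22 ± 0.23) were not called with DEX. In batch 2 none of the 5 was called with DEX, where 0% of all genes were called, with Per1 at 0.09 ± 0.12 and Klf9 at 0.56 ± 0.41.

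Across the 36 libraries, Ubap2l and G3bp1 varied little. The root mean square deviation of log2 CPM from the gene's mean in its batch was 0.123 for Ubap2l and 0.159 for G3bp1, and 0.133% and 1.05% of the genes tested varied less. It reached 0.646 for Tia1, which fell to 0.231 over the 28 libraries of RIN 6 or above, where Ubap2l was at 0.0971 and G3bp1 at 0.157 with 0.231% and 7.08% of genes varying less. The genes whose pattern lay nearest to that of G3bp1, by the root mean square difference of log2 CPM centred within batch over 36 libraries and among 20354 genes, were Capn2 (0.105), Caprin1 (0.107) and Nedd4 (0.114). Of the other 8, Ubap2l ranked 120 on this measure, G3bp2 907 and Tia1 10221. Over the 28 libraries of RIN 6 or above the nearest were Pex19 (0.0757), Caprin1 (0.0863) and Cyfip2 (0.0868), with Atxn2 at rank 868, Ubap2l 906, G3bp2 1134 and Tia1 5400, and Caprin1 alone was among the nearest 3 both times. In either set, a small difference is easier to reach for genes that vary little.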

How the data were processed

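RNA was sequenced in 36 libraries of mouse cortical cells, 12 per treatment over 2 batches. The authors deposited raw counts per gene; their processing notes name HISAT2 2.1.0, Subread 1.5.0-p2 and GRCm38. The study's methods refer these libraries to its common pipeline, in which reads were aligned to a composite of the genome and spliced ribosomal protein mRNAs, with no mismatches and only single-locus reads kept. The annotation release and strand setting are not given in the sources used here. Without strand, reads from shared exonic bases of opposite-strand genes cannot be told apart, which are 99 for Atxn2 with Sh2b3, and 28 and 440 for Ubap2l with 4933434E20Rik and Gm19710. On its own strand, Tia1 shares 352 with Gm44790. The labels name poly(A) selection and the study total RNA. Of 55492 entries, 55227 matched GENCODE M21. Genes with a mean above 5 counts (20355) were tested with edgeR 4.0.16 (TMM, quasi-likelihood, batch as a term, Benjamini-Hochberg adjustment over all of them, called at adjusted p under 0.05), also within each batch and as a batch by treatment interaction. CPM use TMM-scaled library sizes, and log2 CPM a prior count of 2. Alternatives were DESeq2 1.42.0, upper-quartile factors, other filters, no batch term, RIN as a covariate, RIN of 6 or above, only the groups compared and leaving out each library. The fit was tested on simulated counts with changes larger than the treatment changes of the 9 genes and no effect of RIN or batch. It therefore does not show recovery of changes of their size. All 9 genes were named, and from each other list up to 3 called genes of smallest p; names beyond these were chosen after their values were seen. The members and lists were chosen with earlier results of these data known.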

Additional observations from a re-analysis of the deposited data

Results flagged for a closer look

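Each treatment in each batch was searched for a library far from the other 5, for each of the 9 genes. Of 54 such sets of 6 libraries, 3 held one, where chance flags about 1 in 20. In control replicate 20 of batch 2, whose RIN is 1.8, G3bp1 measured 47.4 CPM against 60.9 to 65.7 CPM in the other batch 2 controls. The same library held 189 CPM of Caprin1 against 271 to 301 CPM in the others. In DEX replicate 7 of batch 1, whose RIN is 6.2, Fmr1 measured 97.1 CPM against 56.6 to 71.5 CPM in the other DEX libraries. No cause was tested for any of these values. Control replicate 20 bears on the comparisons over both batches and DEX replicate 7 on Fmr1, as given with those results.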

How the results depend on the processing

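No paired analysis was possible because the groups share no replicate numbers. Of 243 values of single genes under other settings (leaving out libraries aside), 208 kept their direction and side of the threshold. The 243 do not cover DEX + RU-486 against DEX, DEX + RU-486 in batch 2 or batch 2 against batch 1. Directions turned there too. Over both batches, DEX + RU-486 against DEX had 3 negative values of 9 with edgeR and 7 with DESeq2. In batch 2, Tial1 with DEX + RU-486 went from -0.0048 to 0.041 at a RIN of 6 or above. The number of the 9 genes called with DEX over both batches was 0 with edgeR, 2 with DESeq2, 1 with RIN as a covariate and 5 at a RIN of 6 or above, and ran from 0 to 4 over the libraries left out. With DEX + RU-486 it was 4 at a RIN of 6 or above and ran from 0 to 2. In batch 1, RIN as a covariate left 2 called in each comparison, and leaving out libraries gave 5 to 6 with DEX and 3 to 5 with DEX + RU-486. At a RIN of 6 or above, 3 were called for the batch difference with DEX and 3 between batches. Over both batches, the DEX value of Ubap2l turned to 0.00256 (upper-quartile factors) and 0.0135 (at least 10 counts in every library), that of Tia1 to 0.17 and of Tial1 to 0.11 (RIN as a covariate), and the DEX + RU-486 value of Tia1 to 0.00964 (DESeq2), 0.0296 (upper quartile), 0.0368 (at least 10 counts) and 0.17 (RIN) and of Tial1 to 0.0448 (RIN). In batch 1, Ubap2l with DEX turned to 0.00278 (DESeq2), Tial1 to 0.0568 (RIN), and with DEX + RU-486 Tia1 to 0.11 and Tial1 to 0.0851 (RIN). In batch 2 with DEX, Ubap2l turned to 0.0139 (RIN of 6 or above) and Atxn2 to 0.00518 (RIN as a covariate). None of these values was called, and the cause was not tested. Leaving out libraries also turned values near 0: over both batches Tial1 with DEX (-0.126 to 0.000148), Tia1 (-0.115 to 0.0658) and Tial1 (-0.124 to 0.0134) with DEX + RU-486, in batch 1 Ubap2l with DEX (-0.0803 to 0.0130), and in batch 2 with DEX Ubap2l (-0.0628 to 0.0203), Tia1 (-0.0847 to 0.295), Tial1 (-0.0284 to 0.248), Atxn2 (-0.128 to 0.0607) and Fmr1 (-0.0949 to 0.0380). The lowest count of the 9 in a library was 189, and in batch 1 depth and treatment with DEX cannot be told apart. Chosen after seeing the data, RIN as a covariate and a RIN of 6 or above were also run for the other gene lists, the control levels and the spreads.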
